A study of Homo sapiens with 16 samples.

Results

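The genes described here are 9 genes of zinc and heavy metal handling, MT1E, MT1F, MT1G, MT1H, MT1M, MT1X, MT2A, MTF1 and SLC30A1, picked by symbol from the 60676 rows of the read count table. Of the 9, 6 had at least 1 count in the libraries used for levels and all 6 passed the filter on low counts, namely MT1E, MT1F, MT1X, MT2A, MTF1 and SLC30A1. The labels name HCT116, an established colorectal carcinoma cell line, as the source of the RNA, which was sequenced as poly(A) libraries. The profiles of 7 libraries stood apart, as given below. The 8 groups combine 1 of 2 shRNA labels with 1 of 4 treatments. The shRNA is shCTL, the control, or shNELFE, directed at NELFE, the E subunit of the negative elongation factor that holds RNA polymerase II near promoters. The treatments are DMSO, EPZ-5676, HMBA and EPZ-5676 + HMBA. EPZ-5676 inhibits the histone methyltransferase DOT1L, and HMBA (hexamethylene bisacetamide) is an inducer of differentiation that frees P-TEFb, a kinase of transcription elongation, from the complex that inhibits it. The labels state neither doses nor treatment times, nor how many clones or cultures stood behind each shRNA. The tests use 1 library per group, so libraries in them never share a condition. Their p-values are set against the departure from additive effects, in which combined effects and noise, possibly technical, are mixed.

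Metallothioneins are small cysteine-rich proteins that bind zinc, copper and cadmium in the cytosol and buffer the free metal. When free zinc rises, the zinc finger factor MTF1 enters the nucleus and binds metal response elements (MREs), short sequences in the promoters of the metallothionein genes and of SLC30A1, which encodes the plasma membrane exporter ZnT1. In the intestine and in epithelial cancers the MT1 and MT2A genes are known to respond to metals, oxidants and glucocorticoids.

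The metallothionein members lie together on chromosome 16 of hg38, with positions from GENCODE release 29. MT2A spans chr16:56608199-56609497, MT1E chr16:56625475-56627112, MT1M chr16:56632233-56633986, MT1F chr16:56657694-56660698, MT1H chr16:56669814-56671129 and MT1X chr16:56682424-56684196, all on the plus strand, and MT1G spans chr16:56666731-56668065 on the minus strand. MTF1 lies on the minus strand at chr1:37809567-37859620 and overlaps the antisense gene AL929472.4. SLC30A1 lies on the minus strand at chr1:211571568-211578742. MT1X overlaps AC026461.1 on the same strand, and in MT1X 18.3% of 50-base stretches of its transcripts occur exactly in another gene. The share was 16.5% in MT1G, 15.8% in MT1H, 9.87% in MT1M and 7.10% in MT1E. It was 3.02% in MT2A, 1.22% in MT1F, 0.640% in MTF1 and 0 in SLC30A1. The stretches of MT1X are shared with AC026461.1 or with other metallothioneins, and of its 100-base stretches 11.3% are shared, all with AC026461.1. Reads wholly within a shared stretch cannot be assigned to 1 gene, so the counts of MT1X, MT1G, MT1H and MT1M carry that uncertainty. The read length is not given in the sources used here.

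RefSeq promoter sequences (GRCh38.p14) were matched for 5 of the 9 members, MT2A, MT1X, MT1H, MTF1 and SLC30A1, and were not matched for MT1E, MT1F, MT1G and MT1M. The 250 bases before the RefSeq start of MT2A, MT1X and SLC30A1, which rose with HMBA, and of MT1H, which had no count, are shown because they let the MRE cores be counted beside the response. They are written 5′ to 3′ on the gene's strand, with matches to the MRE core TGCACNC or TGCGCNC on either strand in capitals. The stretches are chr16:56608334-56608583 (plus) for MT2A, chr16:56682220-56682469 (plus) for MT1X, chr16:56669564-56669813 (plus) for MT1H and chr1:211579162-211579411 (minus) for SLC30A1.
MT2A: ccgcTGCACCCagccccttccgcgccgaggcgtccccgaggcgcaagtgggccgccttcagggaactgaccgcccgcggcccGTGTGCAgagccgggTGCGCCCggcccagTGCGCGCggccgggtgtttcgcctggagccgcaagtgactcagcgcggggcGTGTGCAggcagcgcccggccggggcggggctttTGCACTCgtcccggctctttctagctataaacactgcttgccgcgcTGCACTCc
MT1X: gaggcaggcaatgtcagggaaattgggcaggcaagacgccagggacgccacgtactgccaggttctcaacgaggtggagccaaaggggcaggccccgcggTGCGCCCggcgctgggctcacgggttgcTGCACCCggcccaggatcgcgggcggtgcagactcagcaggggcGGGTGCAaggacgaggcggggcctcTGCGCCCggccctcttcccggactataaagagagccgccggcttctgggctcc
MT1H: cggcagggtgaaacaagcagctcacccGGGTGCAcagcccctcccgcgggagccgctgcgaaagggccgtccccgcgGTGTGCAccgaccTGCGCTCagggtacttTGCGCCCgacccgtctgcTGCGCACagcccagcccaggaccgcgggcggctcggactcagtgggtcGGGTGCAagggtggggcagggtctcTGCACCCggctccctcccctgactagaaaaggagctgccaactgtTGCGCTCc
SLC30A1: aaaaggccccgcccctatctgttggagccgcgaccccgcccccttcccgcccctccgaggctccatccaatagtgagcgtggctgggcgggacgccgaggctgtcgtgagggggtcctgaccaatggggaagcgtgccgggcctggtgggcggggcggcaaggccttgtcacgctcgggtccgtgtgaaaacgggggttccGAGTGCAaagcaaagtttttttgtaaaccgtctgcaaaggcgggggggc

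MT2A held 7 MRE cores, beginning at positions -246, -168, -153, -139, -88, -54 and -8 from the start. MT1X held 4, at -150, -122, -78 and -53, and MT1H held 8. SLC30A1 held 1, at -49, and MTF1 held 0. These positions count from the RefSeq start, which can differ from the GENCODE start. For SLC30A1 the RefSeq start is 211579161 and the GENCODE start 211578742, and the bases just before the GENCODE start were not searched. For MT2A the RefSeq start is 56608584, so the stretch shown lies inside the GENCODE span of the gene. Among all 35116 promoters of the same length, 24.8% held at least 1 MRE core, 0.370% held at least as many as MT1X, 0.0313% as many as MT2A and 0.0171% as many as MT1H. The antioxidant response element core TGACNNNGC, searched on both strands, occurred 1 time in each of MT2A, MT1X and SLC30A1 and in 10.9% of all promoters. MT1H, with the most MRE cores, had 0 counts in all 16 libraries. A match is a description of the letters only.

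Each group has 2 libraries, numbered 1 and 2, with total counts from 13428893 to 21319666. Of the 16 libraries, 7 stood apart, all numbered 1. Their log2 CPM (counts per gene scaled to a common library total) correlated with the other 9 at r of 0.678 to 0.781, against 0.920 to 0.990 among the 9. In shCTL DMSO replicate 1 and shCTL EPZ-5676 + HMBA replicate 1, VIM, a mesenchymal filament gene, was at 1771 and 1989 CPM and the epithelial cadherin CDH1 at 0.102 and 0.101 CPM, which goes against the HCT116 label. On a scale set over all 16 libraries, the 10 mesenchymal markers summed to 7483 and 8179 CPM there, against 34.7 to 104.5 in the 8 numbered 2. The 10 epithelial markers summed to 6933 and 8057 CPM, above the 4394 to 5771 of the 8, though 5 and 4 of them had 0 counts. In the other libraries that stood apart the epithelial sums were 16549 to 31476 CPM and the mesenchymal sums 12.8 to 127.6. In the 9 libraries that did not stand apart EPCAM (302 to 619 CPM), CDH1 (80.5 to 208) and KRT19 (713 to 1248) were high. VIM was at 2.88 to 8.57 and PTPRC, the leukocyte marker, at 0 to 0.124. In the 8 numbered 2 the epithelial KRT8 (2250 to 3191) and KRT18 (547 to 1307) were high too. CDX2 (3.29 to 16.7) and KRT20 (1.29 to 4.83) were low, and CDX1, VIL1 and LGALS4 were at most 0.148. The mesenchymal FN1 (19.3 to 46.0) and COL1A1 (9.66 to 50.8) and the blood cell marker CD68 (9.53 to 29.4) were above VIM and PTPRC. The upper ends for EPCAM, KRT19 and VIM are those of shNELFE EPZ-5676 + HMBA replicate 1. In the 8 numbered 2 they were 372, 1132 and 5.39. That library also lay outside the range of the 8 in its epithelial marker sum (7859 CPM), mitochondrial share (12.2%) and scaling factor (0.810). NELFE was 18.1 ± 2.80 CPM in the 4 shNELFE libraries numbered 2 and 74.3 ± 5.70 (SD, n = 4) in the 4 shCTL libraries. HEXIM1, the P-TEFb inhibitor gene known to be induced by HMBA, was 377 ± 6.98 CPM with HMBA and 73.4 ± 7.403 without (SD, n = 4). In the 7 libraries NELFE was 81.5 to 278 CPM and HEXIM1 42.8 to 73.7 whatever their labels. Levels are therefore given for the 8 libraries numbered 2, which are 1 per group, beside shNELFE EPZ-5676 + HMBA replicate 1, and tests use the 8.

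**Figure D1:**
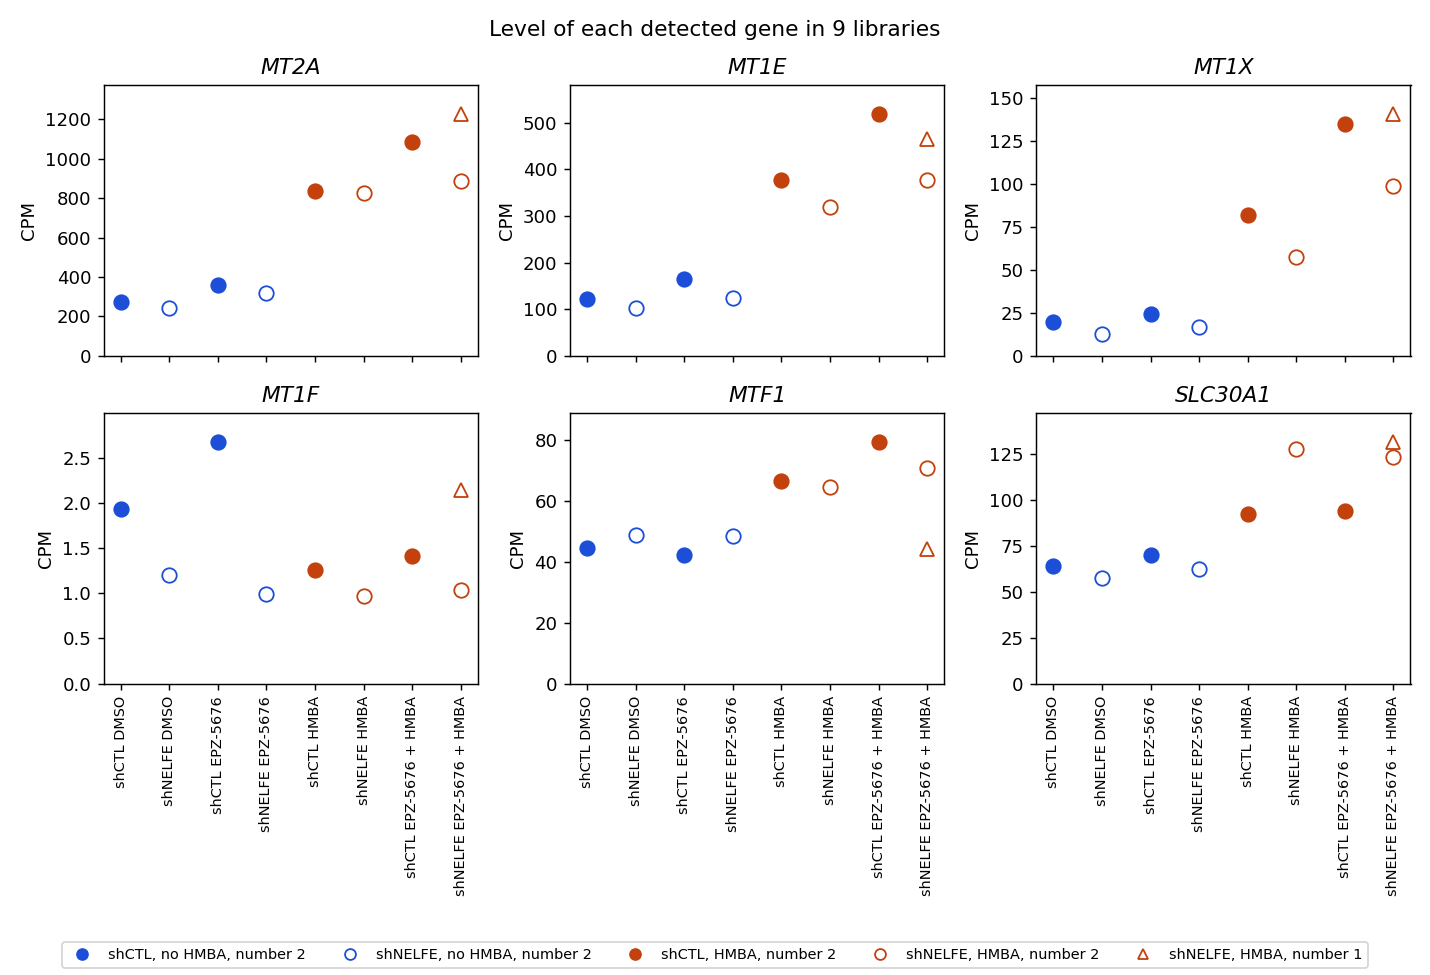
CPM of the 6 members with counts, on a linear axis from 0 for each gene, in the 8 libraries numbered 2 and in shNELFE EPZ-5676 + HMBA replicate 1. Each point is 1 library, and among the libraries numbered 2 MT2A, MT1E, MT1X, MTF1 and SLC30A1 are higher in all 4 with HMBA than in the 4 without. In replicate 1 MTF1 lies at 44.29, among the libraries without HMBA.

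HMBA raised 5 of the 6 tested members. MT1X rose 5.01-fold, MT1E 3.12-fold and MT2A 3.07-fold, while the zinc exporter SLC30A1 rose 1.72-fold and the zinc sensor MTF1 1.53-fold. MT1F, a family member with only 12 to 40 counts a library, lay lower with HMBA (-0.51 on the log2 scale) and did not pass the test. Of all 14808 genes tested, 70.5% were called (edgeR adjusted p under 0.05), 34.9% higher and 35.7% lower with HMBA, and 11.3% were called at least 2-fold higher, so being called is common in this comparison and the count of 5 stands against that background. The 6 members had a median log2 fold change of 1.20, against 0.01 over all genes. In such bulk RNA a change in the share of cells and a change in RNA per cell cannot be told apart.

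MT2A, the most expressed metallothionein here, was at 272.7 CPM in shCTL DMSO, 244.5 in shNELFE DMSO, 358.3 in shCTL EPZ-5676 and 318.3 in shNELFE EPZ-5676. With HMBA it was at 838.5 CPM in shCTL, 823.8 in shNELFE, 1087 in shCTL with EPZ-5676 and 887.6 in shNELFE with EPZ-5676. The 4 libraries with HMBA all lay above the 4 without, and 26.8% of all genes tested separated that way in the higher direction. The means were 909 ± 122 and 298 ± 50.2 CPM (SD, n = 4), a log2 fold change of 1.62 (SE 0.06, edgeR adjusted p = 3.91e-11). The fold in the 4 pairs of libraries that differ in HMBA alone ran from 2.79 to 3.37.

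MT1E, a neighbour of MT2A with the same metal-binding role, was at 121.3, 103.0, 164.0 and 123.1 CPM without HMBA in shCTL DMSO, shNELFE DMSO, shCTL EPZ-5676 and shNELFE EPZ-5676. With HMBA the same order of shRNA and EPZ-5676 gave 378.1, 318.1, 518.8 and 377.0 CPM. The groups with and without HMBA did not overlap, and the pairs agreed closely, from 3.06-fold to 3.16-fold. The log2 fold change was 1.64 (SE 0.06, edgeR adjusted p = 3.37e-11).

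MT1X was at 19.6, 12.74, 24.09 and 16.9 CPM without HMBA and at 82.09, 57.37, 135.0 and 98.7 CPM with it, in the same order. Its log2 fold change of 2.33 (SE 0.09, edgeR adjusted p = 4.05e-11) was exceeded by 514 of the 14808 genes tested, against 913 for MT1E and 929 for MT2A. The fold in the 4 pairs was 4.19 in shCTL without EPZ-5676, 4.50 in shNELFE without it, 5.60 in shCTL with it and 5.84 in shNELFE with it. The pairs with EPZ-5676 were thus both above the pairs without, a difference that did not pass the test of the product term given further on.

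MT1F stood at only 12 to 40 counts a library. It was at 1.928, 1.200, 2.676 and 0.9905 CPM without HMBA and at 1.255, 0.9642, 1.408 and 1.034 CPM with it. The ranges overlapped, the log2 difference was -0.51 (SE 0.26, edgeR adjusted p = 0.0974), and 3 of 4 pairs were lower with HMBA. On total counts without scaling the same difference was -0.73 with an adjusted p of 0.0223. MT1G and MT1H had 0 counts in all 16 libraries and MT1M 0 in the 9, where 3 counts correspond to 0.168 to 0.223 CPM, so a level below that was not detectable at this depth.

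MTF1, the transcription factor that reads free zinc, was at 44.66, 48.85, 42.15 and 48.66 CPM without HMBA and 66.51, 64.6, 79.55 and 71.0 CPM with it. All 4 libraries with HMBA were above the 4 without, at a log2 fold change of 0.61 (SE 0.08, edgeR adjusted p = 9.19e-06). In shNELFE EPZ-5676 + HMBA replicate 1 MTF1 was at 44.29 CPM, within the range of libraries without HMBA. With that library added to the fit the MTF1 log2 fold change was 0.50 (adjusted p = 0.0126).

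SLC30A1, the exporter of cytosolic zinc, was at 64.01, 57.3, 69.92 and 62.46 CPM without HMBA and at 92.57, 127.7, 94.02 and 123.6 CPM with it. The groups did not overlap, and the log2 fold change was 0.78 (SE 0.10, edgeR adjusted p = 9.65e-06). Among the libraries with HMBA the 2 with shNELFE were both above the 2 with shCTL. In shNELFE EPZ-5676 + HMBA replicate 1 SLC30A1 was at 131.8 CPM, MT2A at 1227, MT1E at 464.1, MT1X at 140.7 and MT1F at 2.142, so that MT2A, MT1X and SLC30A1 were above every library numbered 2.

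**Figure D2:**
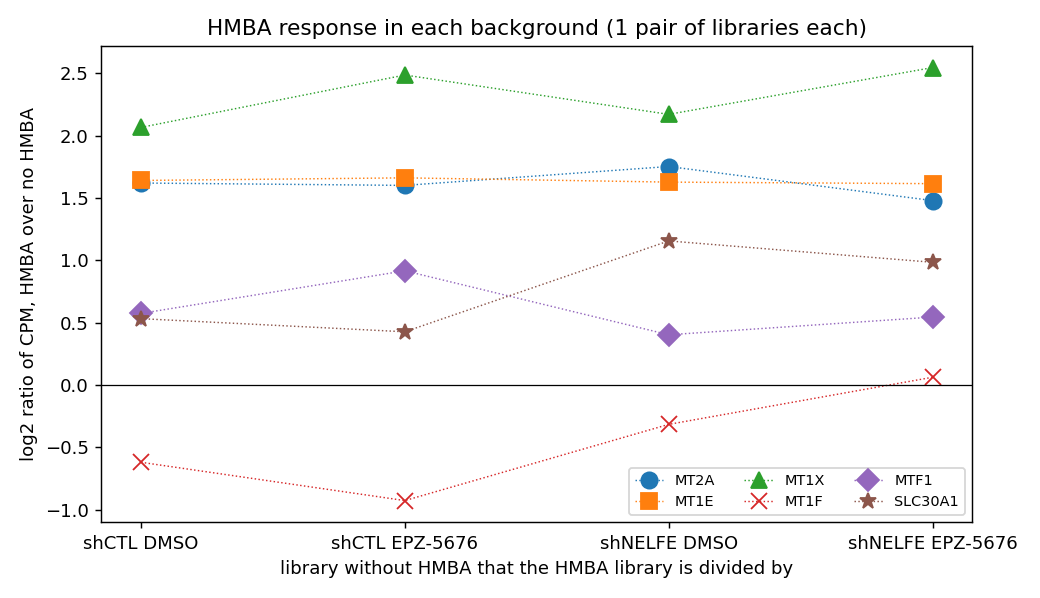
Log2 ratio of CPM with HMBA over CPM without it for the 6 members with counts, in each of 4 pairs of libraries numbered 2 that share the shRNA and EPZ-5676 labels, named on the horizontal axis. MT2A, MT1E, MT1X, MTF1 and SLC30A1 lie above 0 in all 4 pairs, and SLC30A1 is higher in the 2 shNELFE pairs than in the 2 shCTL pairs. Dotted lines only join the points of a gene.

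Other measures moved with HMBA in the same libraries, where 34.9% of all genes tested were called higher and 35.7% lower. Mitochondrial transcripts took 8.87% to 10.1% of counts with HMBA and 6.12% to 6.90% without. Of the epithelial markers 2 rose and 4 fell of 7 tested, with a summed level of 4646 to 5320 CPM with HMBA and 4456 to 5966 without. Of the mesenchymal markers 3 rose and 1 fell of 6 tested, with a summed level of 64.1 to 104.6 CPM with HMBA and 35.2 to 67.7 without. Of 5 blood cell markers only CD68 was tested and it rose, and the list summed to 15.3 to 30.2 CPM with HMBA and 9.7 to 20.4 without. In each library numbered 2, 1 to 2 of the 10 epithelial and 0 to 4 of the 10 mesenchymal markers were at 0 counts, and PTPRC stayed at or near 0. The part of these measures in the members' values was not tested.

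With EPZ-5676 the 3 metallothioneins that HMBA raised, MT1X, MT1E and MT2A, were higher. MT1X rose by a log2 fold change of 0.58 (SE 0.09, edgeR adjusted p = 0.00249), MT1E by 0.35 (SE 0.06, adjusted p = 0.00651) and MT2A by 0.31 (SE 0.06, adjusted p = 0.0117). Of all genes tested 3.80% were called with EPZ-5676, 1.36% higher and 2.44% lower, against 3 higher and 0 lower of the 6 members. Each of the 3 was higher in 4 of 4 pairs of libraries differing in EPZ-5676 alone, by 1.23-fold to 1.72-fold for MT1X, 1.19-fold to 1.37-fold for MT1E and 1.08-fold to 1.31-fold for MT2A. The values with and without EPZ-5676 overlapped for all 3, since both hold libraries with and without HMBA. Within the libraries without HMBA, MT2A (edgeR adjusted p = 0.0161) and MT1E (0.0375) passed and MT1X (0.0806) did not, with 3.09% of genes called. Within those with HMBA, MT1X (0.000526) passed and MT1E (0.0515) and MT2A (0.132) did not, with 1.09% called. Within either shRNA label none of the 3 passed (0.0722 to 0.274), with 0.0540% of genes called in shCTL and 0.162% in shNELFE.

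MTF1 differed by 0.08 (SE 0.08, adjusted p = 0.620), SLC30A1 by 0.05 (SE 0.10, adjusted p = 0.820) and MT1F by 0.16 (SE 0.26, adjusted p = 0.789) with EPZ-5676, none past the threshold. The call for MT2A rested on single libraries, with an adjusted p of 0.0727 without shCTL DMSO replicate 2 and 0.0572 without shNELFE EPZ-5676 replicate 2. With shNELFE EPZ-5676 + HMBA replicate 1 added, the log2 fold changes were 0.68 for MT1X, 0.39 for MT1E and 0.38 for MT2A, of like size, and the adjusted p rose to 0.110, 0.109 and 0.166. Among the markers KRT20 (0.98, edgeR adjusted p = 0.0121), 1 of 7 epithelial genes tested, rose with EPZ-5676. FN1 (0.66, edgeR adjusted p = 0.00151), 1 of 6 mesenchymal genes tested, rose too, and 0 markers fell. Over all genes 1.36% were called higher and 2.44% lower with EPZ-5676. The epithelial markers summed to 4646 to 5966 CPM with EPZ-5676 and 4456 to 5534 without, the mesenchymal to 60.7 to 104.6 and 35.2 to 83.1, and the blood cell markers to 9.72 to 23.2 and 11.3 to 30.2. Their part in the members' values was not tested.

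The knockdown of NELFE went with lower levels of MT1X, by a log2 fold change of -0.52 (SE 0.09, edgeR adjusted p = 0.00170), and of MT1E, by -0.34 (SE 0.06, adjusted p = 0.00230). Each was lower in 4 of 4 pairs differing in the shRNA alone. Of all genes tested 13.1% were called with shNELFE, 7.48% lower and 5.62% higher, against 2 lower and 0 higher of the 6 members. MT2A was lower in 4 of 4 pairs too, at -0.16 (SE 0.06), but its adjusted p of 0.0912 missed the threshold; it was 0.0183 without shNELFE HMBA replicate 2 and 0.0323 on total counts without scaling. MT1F was at 0.964 to 1.20 CPM with shNELFE and 1.26 to 2.68 with shCTL, ranges that did not overlap, as held in the lower direction for 2.65% of all genes. Its log2 difference was -0.78 (SE 0.26, adjusted p = 0.0671), and 0.0445 with no filter on low counts. MTF1 differed by 0.03 (SE 0.08, adjusted p = 0.865) and SLC30A1 by 0.14 (SE 0.10, adjusted p = 0.389). With shNELFE EPZ-5676 + HMBA replicate 1 added, MT1X was at -0.39 (adjusted p = 0.186) and MT1E at -0.30 (adjusted p = 0.0948), past the threshold in neither case. Among the markers CDH1 (-0.28, adjusted p = 0.00702), 1 of 7 epithelial genes tested, COL1A1 (-0.64, adjusted p = 0.00657), 1 of 6 mesenchymal genes tested, and CD68 (-0.74, adjusted p = 0.000172) fell with shNELFE, and the mesenchymal VIM rose (0.56, adjusted p = 0.0330). The epithelial markers summed to 4456 to 5320 CPM with shNELFE and 4961 to 5966 with shCTL, the mesenchymal to 35.2 to 94.0 and 50.1 to 104.6, and the blood cell markers to 9.72 to 20.2 and 16.7 to 30.2. Their part in the members' values was not tested. All 3 effects come from the same 8 libraries.

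**Figure D3:**
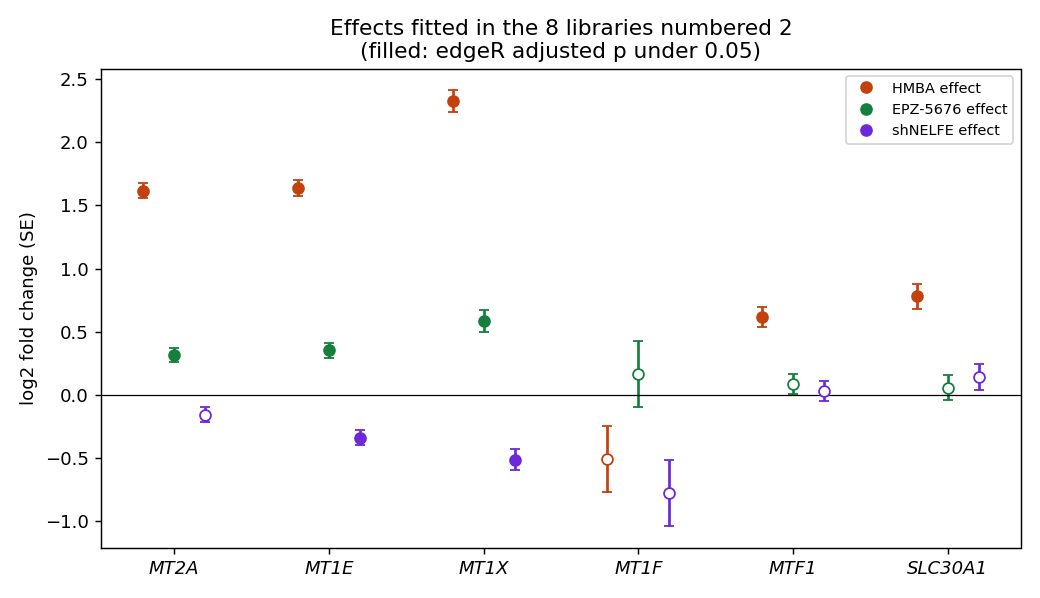
Log2 fold changes of the 6 tested members for HMBA, EPZ-5676 and shNELFE in the 8 libraries numbered 2, with bars of 1 standard error. Filled points passed an adjusted p of 0.05. MT1X, MT1E and MT2A lie above 0 for HMBA and EPZ-5676 and below 0 for shNELFE, where MT2A is not filled.

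Whether the factors change each other's effect was tested with product terms. Each was set against what its own fit left over, which holds the other product terms mixed with noise. For HMBA by shNELFE 0 of the 6 members passed, with 0.243% of all genes called, and for HMBA by EPZ-5676 0 of 6 passed, with 0.0338% called. For EPZ-5676 by shNELFE 0 of 14808 genes were called by edgeR (percent called 0) and 269 had an unadjusted p under 0.05, where limma-voom called 0 and DESeq2 1. HMBA raised MT2A 3.06-fold without shNELFE and 3.08-fold with it, MT1E 3.15-fold and 3.08-fold, and MT1X 4.87-fold and 5.18-fold. The HMBA by shNELFE term was 0.01 (SE 0.12, adjusted p = 0.994) for MT2A, -0.03 (SE 0.12, adjusted p = 0.983) for MT1E and 0.09 (SE 0.17, adjusted p = 0.949) for MT1X. For MT1X the HMBA by EPZ-5676 term was 0.40 (SE 0.13, adjusted p = 0.297).

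For SLC30A1 the HMBA by shNELFE term was 0.59 on the log2 scale (SE 0.12, unadjusted p = 0.000246, edgeR adjusted p = 0.0795), and for MT1F it was 0.64 (SE 0.53, adjusted p = 0.838). HMBA raised SLC30A1 1.40-fold without shNELFE (adjusted p = 0.000249), where 60.5% of genes were called, and 2.11-fold with shNELFE (adjusted p = 1.02e-07), where 60.4% were called. Pair by pair the fold was 1.45 and 1.34 in shCTL, without and with EPZ-5676, and 2.23 and 1.98 in shNELFE. Seen the other way, shNELFE moved SLC30A1 by 0.43 (SE 0.08, adjusted p = 0.00806) in the libraries with HMBA, where 6.79% of genes were called, and by -0.16 (SE 0.09, adjusted p = 0.331) in those without, where 4.35% were called. The product term passed the threshold with DESeq2 (adjusted p = 0.0232), with no filter on low counts (0.0150) and without shNELFE EPZ-5676 + HMBA replicate 2 (0.0210). The term missed the threshold with RLE scaling, unscaled totals and limma-voom. On leaving out each library in turn it ran from 0.53 to 0.64 and passed in only 1 of 8 fits. With the 9 libraries its edgeR adjusted p was 0.879. A difference in the HMBA response of SLC30A1 between the shRNA labels was thus past the threshold in some of these fits and not in the one used throughout.

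Per kilobase of annotated exon, the order of levels without HMBA was MT2A at 230 ± 38.6 CPM per kb, MT1E at 122 ± 24.5, SLC30A1 at 11.6 ± 0.949, MT1X at 10.3 ± 2.69, MTF1 at 5.74 ± 0.405 and MT1F at 0.899 ± 0.405 (SD, n = 4). SLC30A1 and MT1X did not differ beyond their spread in that order. With HMBA the order was MT2A at 699.9 ± 93.6 CPM per kb, MT1E at 378 ± 81.1, MT1X at 52.6 ± 18.4, SLC30A1 at 20.0 ± 3.43, MTF1 at 8.78 ± 0.829 and MT1F at 0.617 ± 0.108, so MT1X passed SLC30A1. The lengths join all annotated exons, so they exceed the main transcript where a gene has long minor ones.

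Within the metallothionein pool, the summed counts of MT1E, MT1F, MT1M, MT1X and MT2A, the share of MT1E was 26.5% to 29.9% in the 8 libraries numbered 2. The share of MT1X without HMBA was 3.53% in shNELFE DMSO (95% Wilson interval 3.10 to 4.01), 3.68% in shNELFE EPZ-5676, 4.39% in shCTL EPZ-5676 and 4.72% in shCTL DMSO (4.23 to 5.26). With HMBA it was 4.78% in shNELFE HMBA (4.45 to 5.13), 6.31% in shCTL HMBA, 7.23% in shNELFE EPZ-5676 + HMBA and 7.75% in shCTL EPZ-5676 + HMBA (7.44 to 8.07). MT1X thus took a larger share of the pool in the 4 libraries with HMBA than in the 4 without, though shNELFE HMBA and shCTL DMSO lay within each other's intervals, which cover counting error only.

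Across the 8 libraries the metallothioneins followed each other, with r of log2 CPM of 0.993 between MT1E and MT1X, 0.993 between MT1E and MT2A and 0.982 between MT1X and MT2A. MTF1 correlated with the 3 at 0.925 to 0.936 and SLC30A1 at 0.848 to 0.897, and MT1F with the other members at -0.543 to -0.248. All points share the split by HMBA, and the values are a description. Among 9352 tested genes with a mean of at least 10 CPM, those most like MT2A were TPPP (r = 0.998), YKT6 (0.997), WFS1 (0.996), ZCCHC14 (0.995) and ZFAND4 (0.995), and 650 genes had an r over 0.95. Those most like SLC30A1 were CDIPT (0.993), CDC34 (0.990), IRS2 (0.986), TMSB10 (0.984) and MCRIP1 (0.984), with 165 genes over 0.95.

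Other zinc transporters did not move together with HMBA, and 34.9% of all genes tested were called higher and 35.7% lower. A further 9 genes of the SLC30 family are listed here as zinc exporters, though not each of them carries zinc out of the cytosol. Of these 6 were tested, 3 rose, 1 fell and 2 did not pass, with a median log2 fold change of 0.18. SLC30A3, which loads zinc into vesicles, rose from 11.1 ± 0.467 to 32.8 ± 1.60 CPM (SD, n = 4), by 1.57 (SE 0.08, edgeR adjusted p = 1.09e-09). SLC30A4 (0.59) and SLC30A9 (0.27) rose and SLC30A6 (-0.26) fell, but the calls of SLC30A4 and SLC30A6 were lost on leaving out single libraries and that of SLC30A9 on total counts without scaling. Of 14 SLC39 importers, which bring zinc into the cytosol, 11 were tested, 3 rose, 4 fell and 4 did not pass, with a median of -0.11. SLC39A13 fell from 16.8 ± 1.39 to 9.72 ± 0.800 CPM, by 0.79 on the log2 scale, and SLC39A1 from 48.4 ± 1.998 to 31.9 ± 3.58 CPM, by 0.60. SLC39A3 (-0.47) and SLC39A7 (-0.36) fell and SLC39A11 (0.34) rose. On total counts without scaling SLC39A11 was at 0.11 (adjusted p = 0.190), and with the 9 libraries SLC39A3 was at -0.31 (adjusted p = 0.159).

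Of 11 copper handling genes 5 rose, 5 fell and 1 did not pass with HMBA, at a median of 0.24. The shares over all genes were 34.9% higher and 35.7% lower. CCS, the chaperone that loads copper into SOD1, rose from 12.2 ± 0.688 to 27.3 ± 3.71 CPM, by 1.17 on the log2 scale. SOD1, the cytosolic copper-zinc superoxide dismutase, rose from 265 ± 15.7 to 406 ± 42.7 CPM, by 0.61, and the copper importer SLC31A1 rose by 0.48. SCO2, which delivers copper to cytochrome oxidase, fell from 33.7 ± 4.41 to 14.3 ± 1.36 CPM, by 1.23, and SLC31A2 fell by 0.998.

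**Figure D4:**
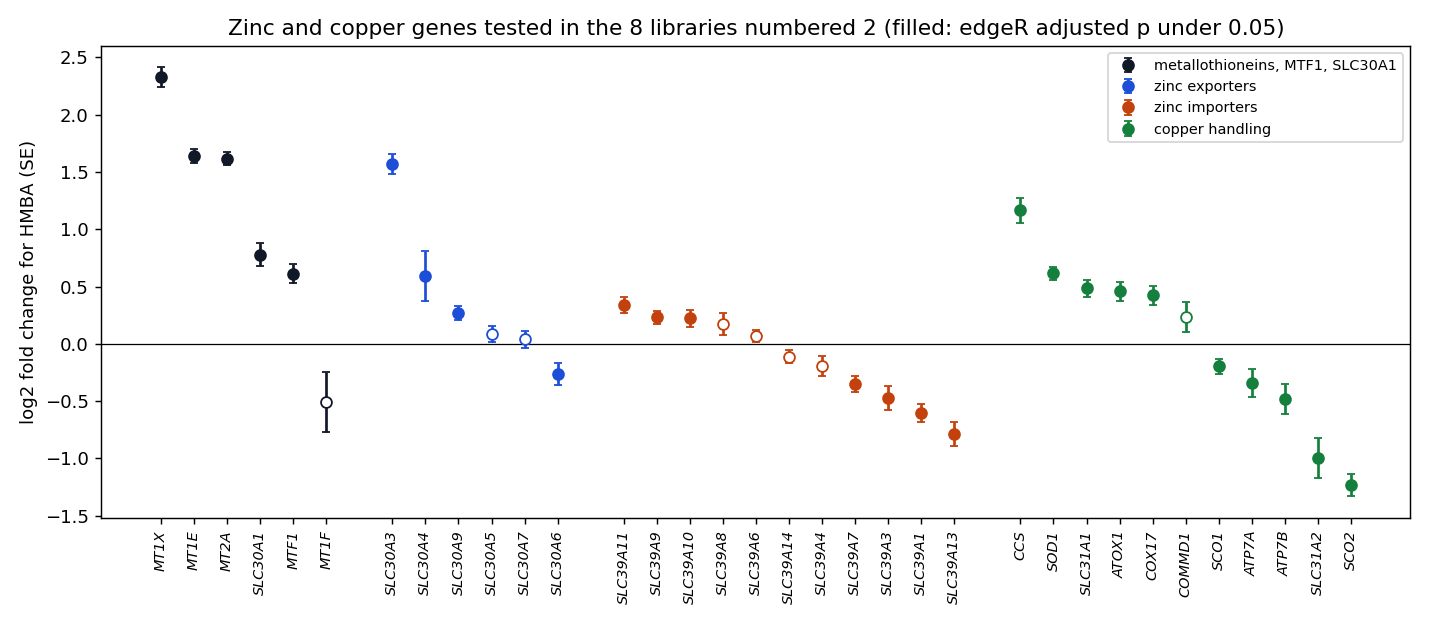
Log2 fold changes with HMBA of the tested members, zinc exporters, zinc importers and copper handling genes, 1 point per gene with bars of 1 standard error, in the 8 libraries numbered 2. Filled points passed an adjusted p of 0.05. MT1X, MT1E, MT2A and SLC30A3 have the largest positive values shown and SCO2 the most negative.

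Of 12 genes that respond to metal or oxidant stress, 7 rose, 3 fell and 2 did not pass with HMBA, at a median of 0.39. Over all genes tested 34.9% were called higher and 35.7% lower with HMBA. The shares were 1.36% and 2.44% with EPZ-5676 and 5.62% and 7.48% with shNELFE. The heat shock gene HSPA1B rose from 385 ± 56.4 to 1921 ± 271 CPM, by 2.32 on the log2 scale, and the co-chaperone DNAJB1 from 256 ± 68.2 to 945 ± 128 CPM, by 1.91. HSPA1A rose by 2.22, but it is nearly identical to HSPA1B and the split of reads between them is uncertain. SRXN1 rose by 0.98 and GCLC, the rate-limiting enzyme of glutathione synthesis, by 0.61. The 3 that fell with HMBA were TXNRD1, by 0.33 (edgeR adjusted p = 9.35e-05), HMOX1, by 0.35 (adjusted p = 0.0267), and HSPA6. HSPA6 fell by 2.63 (adjusted p = 0.000225), but only from 0.979 ± 0.992 to 0.151 ± 0.187 CPM. With EPZ-5676 0 of the 12 rose and 4 fell, among them DNAJB1 (-0.43, edgeR adjusted p = 0.00801) and HSPA1A (-0.41, adjusted p = 0.0348), while MT1X, MT1E and MT2A rose. HSPA1A lost that call on leaving out most single libraries, and DNAJB1 with the 9 libraries (adjusted p = 0.139). With shNELFE 1 rose and 3 fell: SLC7A11, the cystine importer, fell from 80.9 ± 18.9 to 36.4 ± 3.30 CPM, by 1.13 (adjusted p = 7.81e-06), and HSPH1 rose by 0.33 (adjusted p = 0.00620; 0.0634 with the 9 libraries).

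Of 9 glucocorticoid-responsive genes 8 were tested, and 5 rose and 3 fell with HMBA, at a median of 0.81. The shares of all genes called higher and lower were 34.9% and 35.7% with HMBA. They were 1.36% and 2.44% with EPZ-5676 and 5.62% and 7.48% with shNELFE. SGK1, a kinase gene induced by steroids, rose from 1.98 ± 0.716 to 31.4 ± 7.96 CPM, by 3.997 on the log2 scale, PER1 rose by 2.30 and KLF9 by 1.86. NR3C1, which encodes the glucocorticoid receptor, fell from 27.3 ± 6.96 to 2.93 ± 0.627 CPM, by 3.20, and CEBPD fell by 1.22. With EPZ-5676 1 of the 8 rose, SGK1 (0.67, adjusted p = 0.00756), and 1 fell, FKBP5 (-0.43, adjusted p = 0.00190), and with shNELFE 0 rose and 0 fell. The SGK1 call was lost without shCTL HMBA replicate 2 (adjusted p = 0.0536) and without shNELFE EPZ-5676 + HMBA replicate 2 (0.0588), and with the 9 libraries SGK1 (0.0795) and FKBP5 (0.0527) both missed the threshold. EPZ-5676 changed 0 of the zinc exporters, 0 of the zinc importers and 0 of the copper genes, and shNELFE raised SLC30A9 (0.20, adjusted p = 0.0443) and SOD1 (0.18, adjusted p = 0.0485) and no other gene of these 3 lists, both calls being lost on leaving out most single libraries.

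In the 7 libraries that stood apart the members had other levels than their labels' partners numbered 2, here on a scale set over all 16 libraries. In shNELFE DMSO replicate 1, shCTL HMBA replicate 1, shCTL EPZ-5676 replicate 1, shNELFE EPZ-5676 replicate 1 and shNELFE HMBA replicate 1 MT1E had 0 counts, MT2A was at 20.8 to 30.4 CPM and MT1X at 5.47 to 10.99. The 9 libraries had MT1E at 101.5 to 518.4 CPM, MT2A at 241.1 to 1196 and MT1X at 12.6 to 137.1 on that scale. In shCTL DMSO replicate 1 and shCTL EPZ-5676 + HMBA replicate 1 MT2A was at 544.9 and 650.0 CPM, MT1E at 80.6 and 92.9 and MT1X at 30.4 and 34.2. SLC30A1 was at 10.5 to 18.1 CPM in the 7 libraries, below the 56.5 to 128.4 of the 9, and MTF1 at 17.1 to 30.9 CPM, below their 40.8 to 79.5. MT1F was at 3.05 to 4.03 CPM in the 5 libraries without MT1E counts, above the 0.955 to 2.59 of the 9. Of these, shCTL HMBA replicate 1 and shNELFE HMBA replicate 1 had MT2A at 26.98 and 22.1 CPM, within the range of the 3 other libraries with no MT1E count, none of which is labelled as given HMBA.

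**Figure D5:**
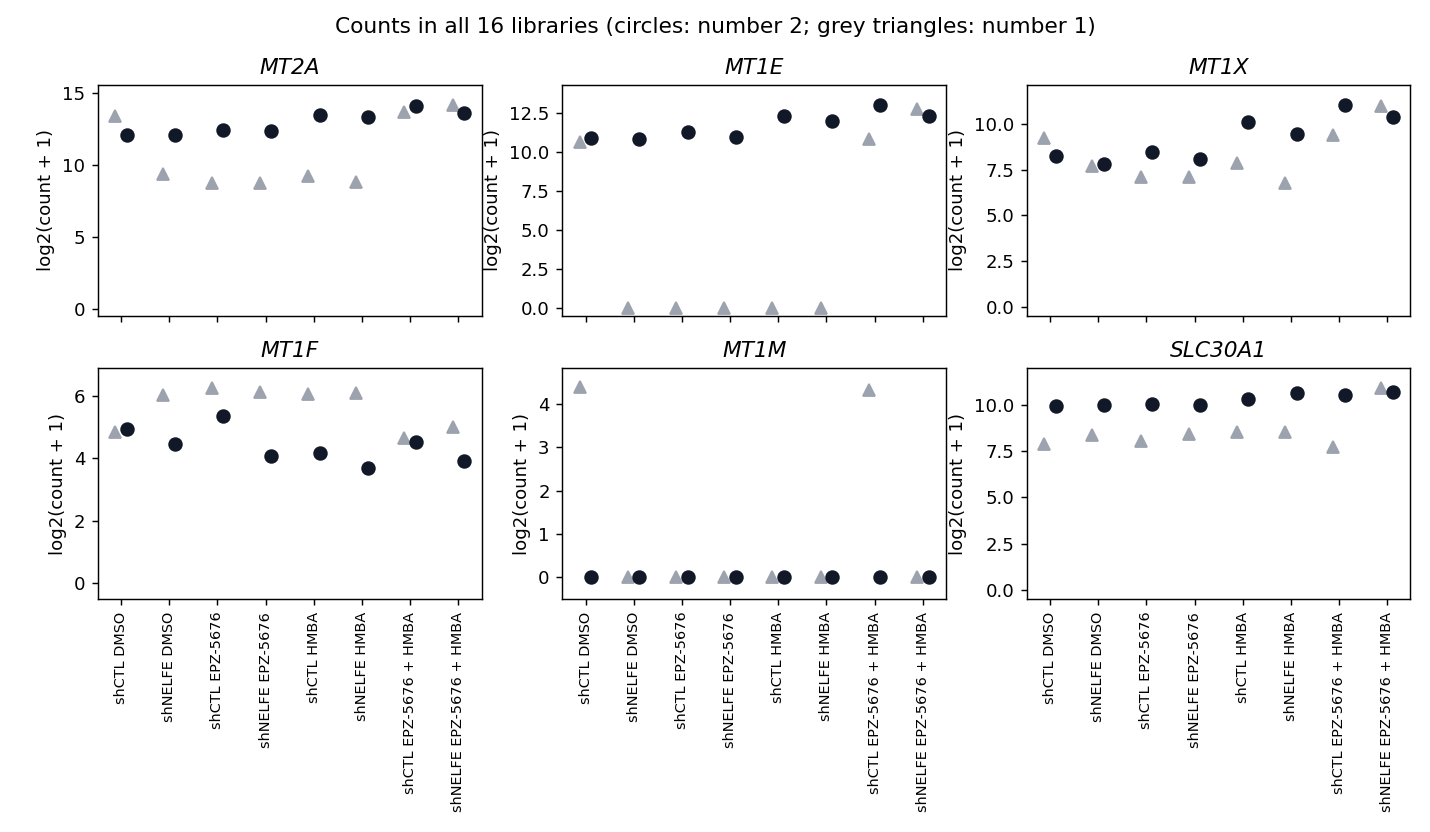
Counts of MT2A, MT1E, MT1X, MT1F, MT1M and SLC30A1 as log2(count + 1) in all 16 libraries, with circles for the libraries numbered 2 and grey triangles for those numbered 1. In 5 of the libraries numbered 1 MT1E is at 0, and in shNELFE EPZ-5676 + HMBA the triangle lies near the circle.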

How the data were processed

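RNA-seq of cells labelled HCT116 was analysed from the authors' deposited table of raw read counts per gene for 16 libraries, 2 for each of 8 groups, grouped by their titles. The tools listed, without roles, per the submitters' processing notes are HTSeq 0.6.1p1, STAR 2.4.0b, edgeR and Cufflinks 2.1.1, and the build is hg38. The library kit is stranded, per the labels' protocols; which annotation and strand setting served for counting is not given in the sources used here. Total counts ran from 13428893 to 21319666, and 3 counts correspond to 0.141 to 0.223 CPM.

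Symbols were taken for 60357 of 60676 rows. Levels are CPM on TMM-scaled totals over 9 libraries, or over 16 where said. The tests were edgeR 4.0.16 quasi-likelihood F-tests (R 4.3.3, limma 3.58.1) on the 8 libraries numbered 2, with HMBA, EPZ-5676 and the shRNA as additive terms, filterByExpr, 14808 genes and Benjamini-Hochberg adjustment at 0.05 over all of them. Residual degrees of freedom were 4, and 3 with a product term. With 1 library per group the residual holds the product terms left out of a fit together with noise. Values within 1 background came from the same counts. Scripts were tested on simulated data. Alternatives were RLE scaling, unscaled totals, no filter, DESeq2 1.42.0, limma-voom, 9 or 16 libraries, a block for the replicate number, and each library left out in turn.

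The members and lists, and the use of the libraries numbered 2, were chosen with earlier results of these data known. Named genes were the members, NELFE and HEXIM1, from each list up to 5 genes with the largest log2 fold change for HMBA and 2 for EPZ-5676 and shNELFE among genes past the threshold at 2 CPM or more, and the 5 genes most correlated with MT2A and SLC30A1 with a mean of at least 10 CPM. TXNRD1, HMOX1 and HSPA6 are named as the stress genes that fell with HMBA. Log2 CPM for correlations used a prior count of 2. VIM, EPCAM, CDH1, KRT8, KRT18, KRT19, KRT20, CDX1, CDX2, VIL1, LGALS4, FN1, COL1A1, PTPRC and CD68 come from the marker lists. Promoters and motifs came from RefSeq (GRCh38.p14).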

Additional observations from a re-analysis of the deposited data

Results flagged for a closer look

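Counts of MT1L and MT1M, which had at most 1 count in each library used for levels, appeared in libraries numbered 1 that are in no test above. MT1L, annotated as a transcribed pseudogene of the MT1 family, had 177 counts in shCTL DMSO replicate 1, 195 in shCTL EPZ-5676 + HMBA replicate 1, 0 in the 5 other libraries that stood apart and 1 in shNELFE HMBA replicate 2. MT1M had 20 counts in shCTL DMSO replicate 1 and 19 in shCTL EPZ-5676 + HMBA replicate 1, and 0 in every other library. Both are above the limit that a count of 0 allows, which is 3 counts a library, and both libraries had the high VIM and low CDH1 given above.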

How the results depend on the processing

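HMBA called the same 5 members higher (MT1E, MT1X, MT2A, MTF1, SLC30A1) with RLE scaling, unscaled totals, no filter, DESeq2, limma-voom, the 9 libraries and each library left out in turn (5 to 5 members). These fits called 41.6% to 70.7% of all genes with HMBA in either direction. The members past the threshold ran from 2 to 3 for EPZ-5676, from 2 to 3 for shNELFE, from 0 to 1 for HMBA by shNELFE, and were 0 for the other product terms, on leaving out a library. The share of all genes called then ran from 1.43% to 4.09% for EPZ-5676 and from 6.94% to 13.6% for shNELFE. It ran from 0.130% to 0.687% for HMBA by shNELFE and was at most 0.241% for the other product terms. With the 9 libraries 0 members passed for EPZ-5676 and 0 for shNELFE, and the fit called 0.201% and 2.37% of all genes for these effects. With all 16 libraries, the 7 that stood apart included, 0 members passed for HMBA, 0 for EPZ-5676 and 0 for shNELFE, without a replicate block and with the replicate block alike. For each of these effects both fits called 0 of 15853 genes, so the 0 is not particular to the members. The HMBA log2 fold changes with the replicate block were 2.02 for MT1E (SE 1.85, edgeR adjusted p = 0.604), 1.95 for MT1X (0.168), 1.63 for MT2A (0.376), 0.41 for MTF1 (0.248) and 0.99 for SLC30A1 (0.206). The differences of replicate 1 from replicate 2 correlated between groups at 0.0804 to 0.959 over 28 pairs of groups, 25 of them over 0.1. As the 7 libraries that stood apart are all numbered 1, these differences carry that split and cannot show a pairing by number. Nothing in the labels ties the numbers to a batch. The HMBA by shNELFE count was 1 (SLC30A1) with no filter, where 0.599% of all genes were called, and with DESeq2, where 0.392% were. Unscaled totals moved the median of all genes for HMBA to -0.22, and all 5 members stayed higher.

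Some differences changed sign. With the 9 libraries MTF1 was at -0.0211 for EPZ-5676 and -0.0819 for shNELFE. With 16 libraries and no block HSPA1A was at -0.36 for HMBA, where the 8 libraries numbered 2 gave a called 2.22, and MT1F was at -0.0307 for EPZ-5676. DNAJB1 for EPZ-5676, a called -0.43 in the 8, was at 0.00894 with no block and 0.13 with the block. On leaving out a library EPZ-5676 ran from -0.0392 to 0.162 for SLC30A1 and from -0.0604 to 0.332 for MT1F, and shNELFE from -0.0442 to 0.110 for MTF1. The cause of these changes was not tested. Depth limits MT1F, at 12 to 40 counts, and any level of MT1G, MT1H and MT1M.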
